A study of Mus musculus with 6 samples.

Results

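Microvillus structure genes encode the proteins that build and hold together the brush border, the carpet of finger-like projections on the apical face of intestinal absorptive cells. The genes described are 10 listed by symbol, Vil1, Espn, Pls1, Eps8, Cdhr2, Cdhr5, Ush1c, Myo7b, Myo1a and Ezr, out of 24786 gene symbols in the deposited counts. All 10 were found and all 10 were among the 12139 genes with enough counts to be tested. They were read by role as 4 actin-bundling genes (Vil1, Espn, Pls1, Eps8), 4 intermicrovillar adhesion genes (Cdhr2, Cdhr5, Ush1c, Myo7b) and 2 membrane-linking genes (Myo1a, Ezr).

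RNA was read in 6 libraries from intestinal organoids of genotype WT, mouse gut epithelium grown in culture from stem cells and dissociated to single cells over 10 min. The tyramine group (3 libraries) was then kept for 16 h with 100 µM tyramine, a trace amine made by bacterial decarboxylation of tyrosine. The control group (3 libraries) is titled DMSO, while the series' design speaks of control medium, so it is unclear which solvent, if any, the tyramine cultures held. The labels do not tie replicates to animals or separate cultures, and the p-values below reflect only the scatter of these libraries, possibly technical. Libraries held 28316372 to 35035955 counts.

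Each microvillus holds a core of parallel actin filaments bundled by villin, espin and fimbrin (plastin 1), with EPS8 at the filament tips. Myosin-1a and ezrin tie this core to the surrounding membrane. At the tips, the protocadherins CDHR2 and CDHR5 link neighbouring microvilli, and their tails are held by a complex of the scaffold harmonin (Ush1c) and the motor myosin-7b, so that microvilli pack tightly as absorptive cells mature.

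The promoters of 8 of the 10 genes were matched by symbol in the RefSeq table (GRCm38.p6), 10 promoters in all because Espn has 3; Eps8 and Myo7b had no entry. The 250 bases before the annotated start are shown 5′ to 3′ for Vil1, Cdhr2 and Cdhr5, genes that fell, and for Ezr, which had the smallest change of the genes called, to let their composition and motif matches be compared. Capitals mark matches to the motifs searched.
Vil1: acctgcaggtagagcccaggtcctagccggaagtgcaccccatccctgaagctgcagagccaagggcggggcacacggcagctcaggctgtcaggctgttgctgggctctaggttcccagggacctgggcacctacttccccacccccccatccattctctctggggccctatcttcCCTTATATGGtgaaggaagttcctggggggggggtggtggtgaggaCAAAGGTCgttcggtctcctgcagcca
Cdhr2: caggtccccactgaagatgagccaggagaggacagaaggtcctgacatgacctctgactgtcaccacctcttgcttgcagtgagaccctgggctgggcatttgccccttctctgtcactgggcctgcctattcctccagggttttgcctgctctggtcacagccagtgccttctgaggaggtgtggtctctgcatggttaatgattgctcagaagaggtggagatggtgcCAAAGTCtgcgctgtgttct
Cdhr5: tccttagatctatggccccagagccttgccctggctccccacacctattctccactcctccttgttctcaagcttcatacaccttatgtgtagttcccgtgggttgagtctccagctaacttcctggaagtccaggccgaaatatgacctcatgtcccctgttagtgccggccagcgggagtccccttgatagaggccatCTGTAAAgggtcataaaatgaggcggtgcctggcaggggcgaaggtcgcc
Ezr: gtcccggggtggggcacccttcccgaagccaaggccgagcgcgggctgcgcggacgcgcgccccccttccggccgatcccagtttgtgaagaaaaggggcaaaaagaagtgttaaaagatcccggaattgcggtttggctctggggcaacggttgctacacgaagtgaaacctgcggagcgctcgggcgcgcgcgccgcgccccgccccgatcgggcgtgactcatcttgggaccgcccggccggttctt

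The windows lie at chr1:74409134-74409383 on the plus strand for Vil1, chr13:54701213-54701462 on the plus strand for Cdhr2, chr7:141276787-141277036 on the minus strand for Cdhr5 and chr17:6782781-6783030 on the minus strand for Ezr. Both strands were searched for CAAAGTCCA (HNF4 type), TTTATNG and TTTACNG (CDX type). CAAAGTCCA was in 0 of the 10 promoters and in 0.384% of all 32851 windows of the same length. Distances are to the RefSeq start, which can differ from the GENCODE gene ends printed with each gene. TTTACNG was in 2, those of Cdhr5 (as CTGTAAA, 50 to 44 bases before the start) and Myo1a (39 to 33 bases before it, which lies inside the GENCODE gene), against 7.89% of all windows. TTTATNG was in 1, the third Espn promoter, against 9.81%. Motifs added after the sequences were read were CAAAGTC, which CAAAGTCCA contains, CAAAGGTC and the CArG box that SRF binds. Their matches could thus be known beforehand, and the shares of all windows given for them do not measure how unusual a match is. CAAAGTC was in the Cdhr2 window 20 to 14 bases before the start (3.84% of all windows) and CAAAGGTC in the Vil1 window 27 to 20 bases before the start (1.01%). The Vil1 window also held a CArG box 73 to 64 bases before the start (1.47% of all windows). No motif was found in the Ezr window. The same held for the windows of Pls1, Ush1c and the first and second Espn promoters, genes that also fell but are not shown. The Ezr window held 32 CG pairs, more than 95.4% of all windows, whereas the other 9 held between 1 and 11 and the median window held 6. A match is a description of letters and not evidence of binding.

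Of the 10 genes, 9 fell with tyramine, 0 rose, and Eps8 did not pass the threshold (quasi-likelihood test in edgeR, p adjusted by Benjamini-Hochberg over all genes tested, threshold 0.05). Over all tested genes 25.8% were called, 13.3% falling and 12.5% rising. The median log2 fold change (tyramine minus control throughout) of the 10 was -0.97, against 0.00 over all tested genes. In the same 9 genes every tyramine library lay below every control library, which held for 23.6% of tested genes, while 20.9% of tested genes had every tyramine library above every control. Together the 10 genes took 1.03% to 1.07% of all counts in the control libraries and 0.547% to 0.637% in the tyramine libraries.

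**Figure D1:**
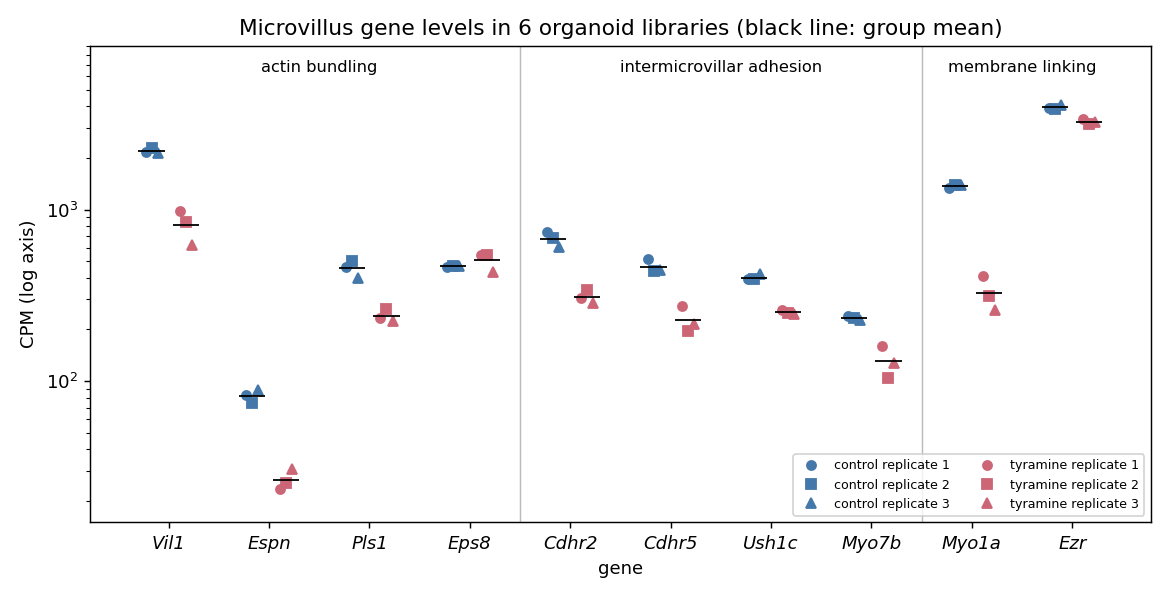
CPM (counts relative to the TMM-adjusted library total, log axis) of the 10 genes in each of the 3 control and 3 tyramine libraries, with black lines at group means. Control and tyramine points separate for every gene except Eps8, whose tyramine libraries (430.5 to 545 CPM) lie on both sides of the controls.

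Among the actin-bundling genes, Vil1 encodes villin, a calcium-regulated protein that bundles, caps and severs actin and is a classical marker of the gut epithelium (GRCm38 chromosome 1, 74409376 to 74435559, plus strand). It stood at 2160.1, 2277 and 2129.7 CPM in control replicates 1 to 3 and at 979, 849 and 617 CPM in tyramine replicates 1 to 3. All 3 tyramine libraries were below the controls and they were spread more widely. The means were 2189 ± 77.6 and 815 ± 183 CPM (SD, n = 3), a 2.69-fold fall (log2 fold change -1.43, SE 0.15; adjusted p = 9.1e-05 in edgeR).

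Espn encodes espin, a bundling protein that lengthens parallel actin bundles (chromosome 4, 152120331 to 152152371, minus strand). It stood at 82.8, 74.6 and 88.2 CPM in the controls and at 23.6, 25.3 and 30.5 CPM with tyramine. The groups did not overlap, and the fall was 3.09-fold (log2 fold change -1.63, SE 0.17; adjusted p = 0.00012 in edgeR). Espn has several annotated promoters and transcripts of unequal length, which counts per gene do not separate.

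Pls1 encodes plastin 1, also called fimbrin, which spaces filaments closely in the core (chromosome 9, 95752642 to 95845311, minus strand). It measured 463, 501 and 398.5 CPM in the controls and 234, 262 and 224 CPM in the tyramine libraries. These ranges did not overlap, and Pls1 fell 1.89-fold (log2 fold change -0.92, SE 0.11; adjusted p = 0.00031 in edgeR).

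Eps8, whose product caps and crosslinks actin at microvillus tips, differed from the other bundling genes (chromosome 6, 137477245 to 137654876, minus strand). It stood at 464, 467 and 469 CPM in the controls and at 545, 545 and 430.5 CPM with tyramine. Tyramine replicates 1 and 2 were above all controls and replicate 3 was below them. The means were 467 ± 2.19 and 507 ± 66.1 CPM, with a log2 fold change of 0.12 (SE 0.11; adjusted p = 0.47 in edgeR). The 95% interval of that change ran from -0.12 to 0.36, or 0.921-fold to 1.28-fold, and the estimates of the other 9 genes, from -2.07 to -0.28, all lay below it.

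The adhesion genes each fell by between 1.59-fold and 2.19-fold. Cdhr2, the longer of the brush border protocadherins (chromosome 13, 54701461 to 54736662, plus strand), stood at 737, 685 and 604 CPM in the controls. With tyramine it stood at 305, 339 and 283 CPM, below every control, a 2.19-fold fall (log2 fold change -1.13, SE 0.11; adjusted p = 6.2e-05 in edgeR). Cdhr5, its binding partner across the gap between microvilli (chromosome 7, 141269083 to 141276786, minus strand), went from 516, 436 and 442 CPM to 273, 196 and 216 CPM. That was a 2.04-fold fall without overlap (log2 fold change -1.03, SE 0.13; adjusted p = 0.00047 in edgeR).

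Per kilobase of the longest protein-coding transcript, the protocadherin pair stood close to parity in both groups. Cdhr2 made up 48 ± 1.77% of the summed CPM per kilobase of the pair in the controls and 46.5 ± 5.47% in the tyramine libraries. Replicate 1 had the lowest share with tyramine (41.6%) and replicate 2 the highest (52.4%), on either side of the control libraries.

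Ush1c encodes harmonin, a scaffold whose PDZ domains gather the tails of the protocadherins (chromosome 7, 46195350 to 46238503, minus strand). It stood at 394, 391 and 419 CPM in the controls and 260.2, 249 and 247 CPM with tyramine. The tyramine libraries agreed closely with each other and lay below the controls, a 1.59-fold fall (log2 fold change -0.67, SE 0.09; adjusted p = 0.00047 in edgeR). Myo7b, the motor that carries this complex towards the tips, went from 239, 232 and 228 CPM to 160.2, 104 and 127 CPM. It fell 1.79-fold (log2 fold change -0.84, SE 0.15; adjusted p = 0.0028 in edgeR), with tyramine replicate 1 the highest of the treated libraries.

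The membrane-linking genes held the largest and the smallest fall among the 9 genes called. Myo1a encodes myosin-1a, the main bridge between actin core and membrane in absorptive cells (chromosome 10, 127705170 to 127720940, plus strand). Its levels were 1338, 1385 and 1393 CPM in the controls and 407, 314 and 259 CPM with tyramine. No tyramine library reached the controls, a 4.20-fold fall (log2 fold change -2.07, SE 0.15; adjusted p = 8.7e-06 in edgeR).

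Ezr encodes ezrin, which links membrane proteins to actin when phosphorylated (chromosome 17, 6738041 to 6782784, minus strand). It measured 3921, 3877 and 4087 CPM in the controls and 3369, 3154 and 3260.2 CPM with tyramine. The ranges did not overlap, and the fall was 1.21-fold (log2 fold change -0.28, SE 0.07; adjusted p = 0.014 in edgeR). That call was lost without control replicate 2 (adjusted p = 0.051) and without tyramine replicate 2 (adjusted p = 0.071), within a range of 0.00052 to 0.071 over 16 alternatives.

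**Figure D2:**
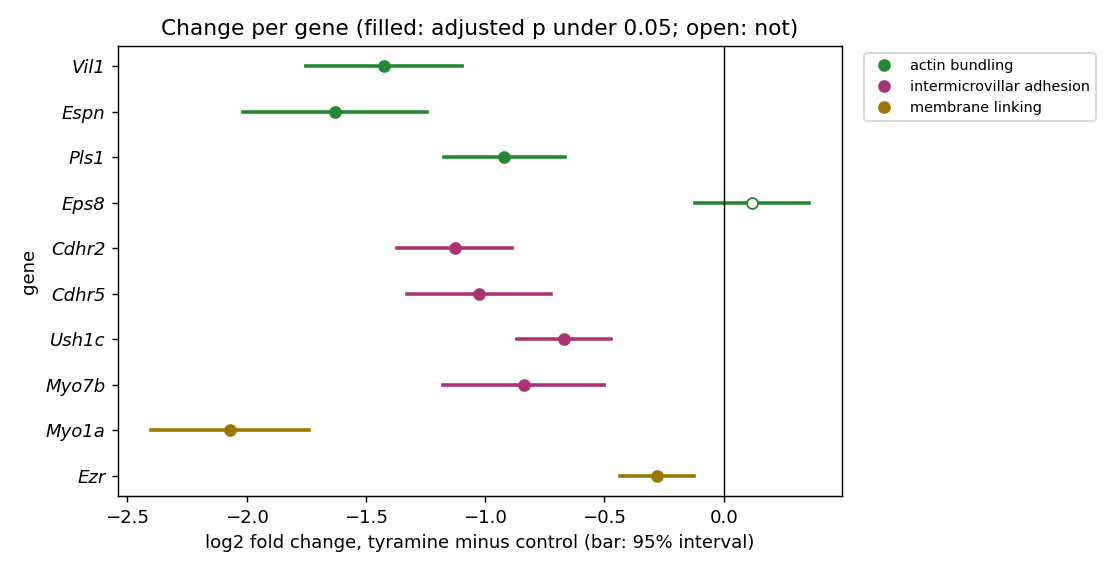
Log2 fold change, tyramine minus control, of each gene with its 95% interval from the edgeR fit, coloured by role, with filled points for genes past the threshold. Myo1a lies furthest to the left at -2.07, Ezr lies at -0.28, and the interval of Eps8 spans 0.

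Bundling and adhesion genes were then compared as groups. The median log2 fold change was -1.17 over the 4 bundling genes, which ranged from -1.63 to 0.12, and -0.93 over the 4 adhesion genes, which ranged from -1.13 to -0.67. The adhesion genes thus sat in a narrower band, inside the range of the bundling genes only because that range included Eps8. Vil1, Espn and Pls1 ranged from -1.63 to -0.92. Cdhr2 and Cdhr5 lay inside that range, whereas Myo7b (-0.84) and Ush1c (-0.67) fell less than all of them. The bundling median minus the adhesion median was -0.24. It was -0.41 without tyramine replicate 2, and -0.16 without tyramine replicate 1, tyramine replicate 3 or control replicate 2.

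Within each library, the mean log2 CPM of the adhesion genes minus that of the bundling genes was -0.03, -0.14 and -0.12 in control replicates 1 to 3. With tyramine it was 0.06, -0.21 and 0.02, so the groups overlapped. The mean difference was -0.09 ± 0.06 in the controls and -0.04 ± 0.15 with tyramine (SD, n = 3). That overlap depended on Eps8. With Eps8 left out of the bundling genes, the difference was -0.003, -0.12 and -0.08 in control replicates 1 to 3. In tyramine replicates 1 to 3 it was then 0.47, 0.19 and 0.37, without overlap. Eps8 was the only bundling gene that did not fall, so leaving it out lowers the bundling mean with tyramine by selection. This separation is therefore not an independent result. No test was made of a mean over chosen genes.

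**Figure D3:**
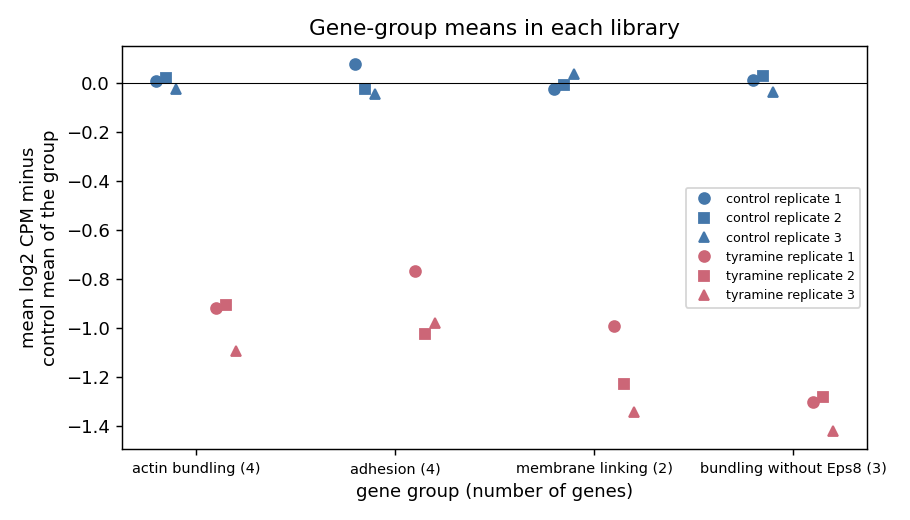
Mean log2 CPM of each gene group in each library, minus that group's mean over the control libraries, with marker shapes for replicates. The last group holds the bundling genes without Eps8. In every group the tyramine libraries lie below the controls, with mean differences of -0.97 for bundling genes with Eps8 included and -0.92 for adhesion genes.

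Set on a common scale of CPM per kilobase of transcript, the level of Ezr was the highest in the controls at 1252 ± 35.1, then Vil1 at 701 ± 24.9 and Myo1a at 399 ± 8.68. Cdhr5 at 177 ± 17 and Cdhr2 at 164 ± 16.3 overlapped each other, as did Ush1c at 131 ± 4.93 and Pls1 at 123 ± 14.0. Eps8 stood at 102 ± 0.48, below every control value of Pls1, and Myo7b at 35.2 and Espn at 17.7 lay below all the others.

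With tyramine, Ezr at 1031 and Vil1 at 261 CPM per kilobase were still the highest. Eps8 came next at 111 ± 14.5, and its range overlapped that of Myo1a at 95 ± 21.8. By mean, Cdhr5 (86.9), Ush1c (82.1) and Cdhr2 (74.8) followed with overlapping ranges, then Pls1 at 64.8, Myo7b at 19.7 and Espn at 5.73. The ranges of Cdhr5, Ush1c and Cdhr2 also overlapped that of Myo1a. Cdhr5 overlapped Eps8 as well, and Pls1 overlapped Cdhr2. Ezr accounted for 38.5 ± 1.21% of the summed CPM of the 10 genes in the controls and 53.6 ± 3.16% with tyramine. Over the same libraries the share of Eps8 went from 4.53 ± 0.04% to 8.30 ± 0.74%, whereas that of Vil1 went from 21.3 ± 0.70% to 13.3 ± 2.16% and that of Myo1a from 13.3 ± 0.32% to 5.32 ± 0.84%. The summed CPM itself went from 10300 ± 36.2 to 6096 ± 434, so the shares of Ezr and Eps8 grew without a called rise in either gene.

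The tyramine libraries also differed among themselves. Replicate 3 was the lowest of the tyramine libraries for 6 of the 10 genes, and replicate 1 the highest for 6. Coefficients of variation reached 22.9% with tyramine (Myo1a), 22.5% (Vil1) and 21.7% (Myo7b), against 2.18%, 3.55% and 2.30% for the same genes in the controls. Pls1, Cdhr2 and Ush1c went the other way, from 11.4%, 9.94% and 3.78% in the controls to 8.24%, 9.01% and 2.78% with tyramine.

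Paralogs of the members were read next, from lists of other brush border genes. Ezr made up 99.9% of the summed CPM per kilobase of Ezr, Msn (moesin) and Rdx (radixin) in both groups, and Msn at 1.75 ± 0.36 and Rdx at 4.02 ± 2.46 CPM were low with tyramine as well. Among the plastins, Lcp1 (plastin 2, known from leukocytes) rose from 9.45, 14 and 16 CPM to 36.3, 30 and 26.4 CPM, a 2.35-fold rise (adjusted p = 0.0093 in edgeR). Pls1 made up 93.5 ± 0.29% of plastin CPM per kilobase in the controls and 82.2 ± 1.55% with tyramine. The leukocyte marker Ptprc had 4 or 5 counts in every library. Cd3e had 41 counts in tyramine replicate 1 and 0 in every other library. Cd68 had 1, 5 and 10 counts in the controls and 17, 5 and 7 with tyramine. Lyz2 was not past the threshold, and Cd79a had 0 counts throughout. The 5 leukocyte markers summed to 1.51 to 2.01 CPM in the controls and 1.86 to 3.99 CPM with tyramine. Which cells the Lcp1 reads came from was not tested. Pls3 was not past the threshold (16.4 ± 4.73 and 19.4 ± 1.55 CPM).

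Class I myosins also differed in make-up. Myo1a made up 75.5 ± 0.79% of the summed CPM per kilobase of Myo1a, Myo1c, Myo1d and Myo1e in the controls and 40.1 ± 5.15% with tyramine, with no overlap between groups. Myo1c, a broadly expressed class I myosin, rose 1.54-fold from 166 ± 5.66 to 255 ± 43.2 CPM (adjusted p = 0.0064 in edgeR). Myo1d, also found in the brush border, fell 1.32-fold (adjusted p = 0.021 in edgeR). Myo1e was not past the threshold (log2 fold change 0.09). The call of Myo1d was lost on leaving out tyramine replicate 2 or control replicate 1 or 2.

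**Figure D4:**
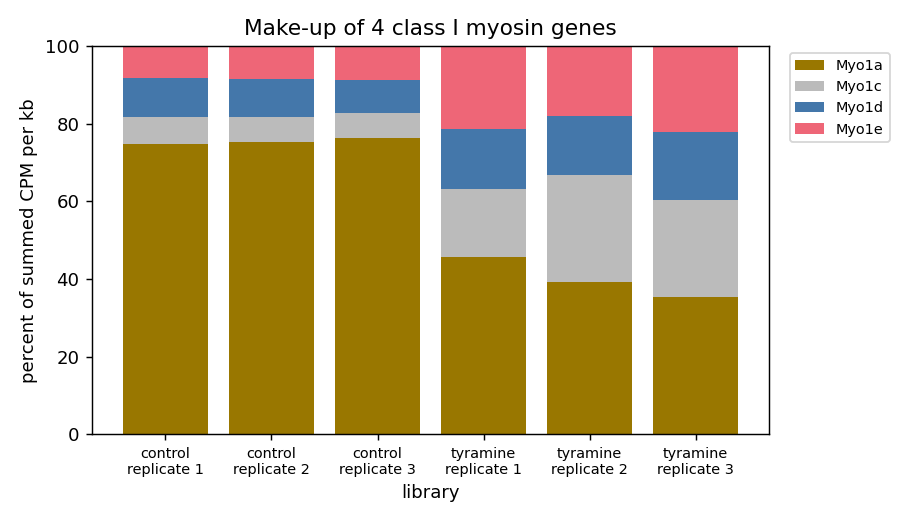
Share of each of 4 class I myosin genes in their summed CPM per kilobase, 1 bar per library. The Myo1a segment spans 74.8% to 76.3% in the controls and 35.5% to 45.7% in the tyramine libraries.

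Of the 4 tested EPS8 family genes, 0 passed the threshold, with Eps8l2 at 297 ± 42.3 and 355 ± 40.8 CPM and Eps8l3 at 342 ± 17.2 and 374 ± 44.9 CPM in controls and tyramine. Eps8 made up 29.6 ± 1.71% of the family's CPM per kilobase in the controls and 28.8 ± 4.79% with tyramine. The villin relatives Vill and Avil averaged at most 4.54 CPM in either group and were not called.

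In all, 6 lists of other brush border genes held 86 symbols, of which 72 were tested, 21 fell, 9 rose and 42 were not called (14 fell without control replicate 2). Over all tested genes 13.3% fell and 12.5% rose, and the rising share of the lists was close to the latter. In the adhesion partner list of 7, 3 genes were tested and all 3 fell, the direct partners Calml4 and Anks4b and the relative Myo7a. Calml4, the light chain of myosin-7b, fell 2.96-fold from 448 ± 77.6 to 151 ± 33.9 CPM (adjusted p = 2.0e-04 in edgeR). Anks4b, the scaffold that joins harmonin to myosin-7b, fell 1.55-fold from 309 ± 21.5 to 200.1 ± 36.8 CPM (adjusted p = 0.0088 in edgeR). Myo7a, the sensory relative of Myo7b, fell 2.11-fold at a lower level. Cdhr3 and Ush1g had 0 counts in every library.

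Of 16 tested genes among other bundlers and tip proteins, 12 were not called, Cobl and Baiap2l2 fell, and Lcp1 and Baiap2 rose. Both the falling and the rising share were close to those over all tested genes. The median log2 fold change of the list was 0.22. Cobl, an actin nucleator of the brush border, fell 1.52-fold from 219 ± 9.30 to 144 ± 23.4 CPM, and Baiap2l2, a membrane-bending protein, fell 1.77-fold. Misp, which binds the rootlets of microvilli, was not past the threshold (619 ± 22.4 and 644 ± 26.2 CPM). Baiap2 rose 2.35-fold together with Lcp1 above, but its call was lost scaled to library totals alone, without any 1 control library or without tyramine replicate 2. The call of Baiap2l2 was lost without control replicate 1 or 2, which left 1 gene of this list falling and 1 rising. Without tyramine replicate 3, 2 fell and 3 rose.

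Of 18 tested linkers, scaffolds and motors, 7 were not called, 7 fell and 4 rose (median log2 fold change -0.14). Over all tested genes the shares were 13.3% falling and 12.5% rising. Without control replicate 1 or 2, 3 of them fell. Stk10, a kinase that phosphorylates ezrin, stood at 7.14, 5.10 and 3.86 CPM in the controls and 76.2, 66.7 and 103 CPM with tyramine. It rose 15.2-fold (log2 fold change 3.93, SE 0.29; adjusted p = 1.0e-05 in edgeR), while Slk, a related kinase, was not past the threshold (502 ± 37.8 and 581 ± 52.2 CPM). Clic5, an ezrin-associated protein, went the other way, from 51.2, 50.7 and 45.5 CPM to 4.91, 6.39 and 13.1 CPM, a 6.04-fold fall (adjusted p = 6.0e-04 in edgeR), and Clic4 rose 1.84-fold. Slc9a3r1, the ezrin-binding scaffold also called NHERF1, fell 1.30-fold from 823 ± 46.8 to 635 ± 47.3 CPM, a call lost without control replicate 1 or 2. The motors Myo6 and Myo5b fell 1.59-fold and 1.43-fold.

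The apical delivery list covers vesicle traffic to the brush border and also holds genes with other roles, among them Epcam. Of its 13 tested genes, 1 fell, 2 rose and 10 were not called. These counts were near the shares over all tested genes, 13.3% falling and 12.5% rising. The gene that fell was Epcam (1.36-fold), an adhesion molecule that is also read below as an epithelial marker. Those that rose were Rab11fip1 (2.21-fold) and Unc45a, a myosin chaperone (1.70-fold). Without tyramine replicate 2, 2 fell and 2 rose. Among 7 tested glycocalyx and other apical membrane genes, 4 fell and 1 rose, against the same shares over all tested genes. Muc13, a transmembrane mucin, fell 2.34-fold from 710.4 ± 52.5 to 303 ± 53.5 CPM, Lgals4 fell 2.08-fold and Prom1 fell 2.20-fold, while Podxl, a podocalyxin gene, rose 2.02-fold.

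Regulators known to act on brush border genes were listed as well. Of 15 tested, 4 fell, 0 rose and 11 were not called, against 13.3% falling and 12.5% rising over all tested genes. Leaving out 1 library gave 3 to 5 falling genes, and 1 rose without tyramine replicate 2. Hnf4g, a nuclear receptor of the absorptive lineage, fell 6.63-fold from 220.4 ± 15.6 to 33.3 ± 12.3 CPM (adjusted p = 3.6e-05 in edgeR). Its relative Hnf4a fell 2.32-fold from 534 ± 34.5 to 231 ± 29.4 CPM (adjusted p = 5.4e-05 in edgeR), and Cdx2, an intestinal homeobox factor, fell 3.46-fold from 20.5 ± 2.97 to 5.93 ± 0.73 CPM. Srf was not past the threshold (17.8 ± 3.55 and 19.1 ± 1.94 CPM).

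**Figure D5:**
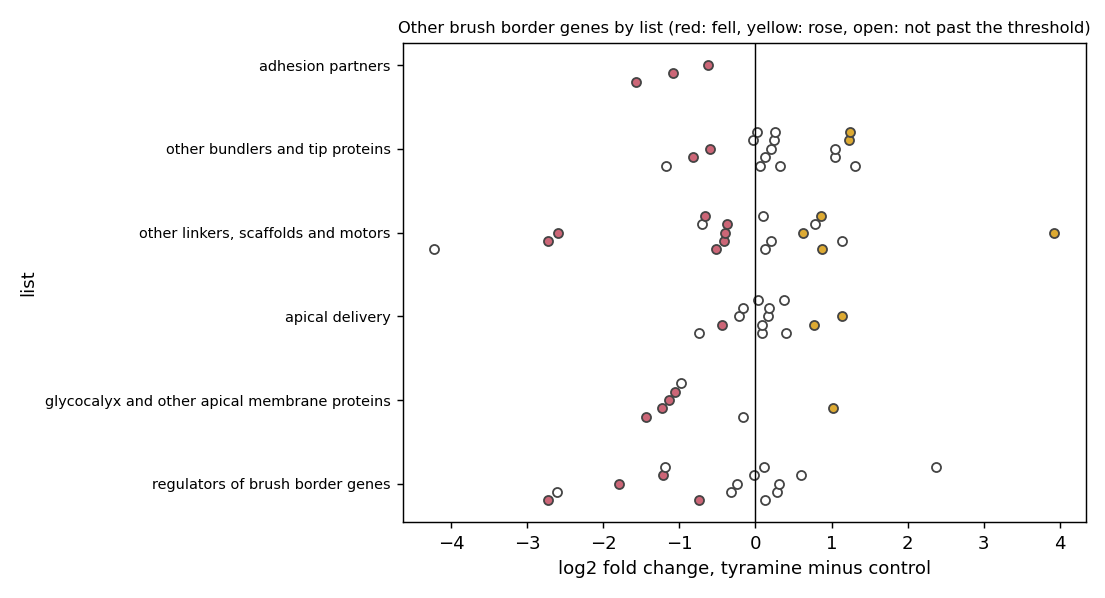
Log2 fold change, tyramine minus control, of each tested gene in the 6 lists of other brush border genes, 1 point per gene, red for genes that fell, yellow for genes that rose and open for genes not past the threshold. All 3 tested genes of the adhesion partner list lie to the left of 0, and the bundler and linker lists lie on both sides.

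Marker lists were read beside these results, with 13.3% of all tested genes falling and 12.5% rising. Of 7 epithelial markers, 2 fell (Epcam and Krt19), 2 rose (Cdh1 and Krt18) and 3 were not called, and their summed level was 18013 to 19529 CPM in the controls and 17320 to 19378 CPM with tyramine. All 10 absorptive cell markers fell (median log2 fold change -3.82), and their sum went from between 14589 and 15644 CPM to between 2669 and 2807 CPM. Among secretory cell markers, 4 of 5 enteroendocrine markers fell (sum 1033 to 1052 CPM in the controls and 284 to 466 CPM with tyramine). Of 5 goblet markers, 2 fell (82.9 to 113 CPM and 47.2 to 61.4 CPM). Of 4 tested Paneth markers, 1 fell (16.2 to 42.1 CPM and 5.64 to 19.5 CPM), too few to set apart from the share over all genes. It was Ang4, with 61, 17 and 20 counts in the controls and 0 in each tyramine library. The part of these changes in the microvillus result was not tested, and in bulk RNA fewer cells of a type and less RNA per cell cannot be told apart. The squamous or stressed epithelium markers summed to 7.90 to 14.3 CPM in the controls and 472 to 835 CPM with tyramine, of which 3 of 5 tested rose (Krt5, Krt6a and Sprr1a). All 4 cycling-cell markers fell (median log2 fold change -5.72), and their sum went from between 1886 and 2346 CPM to between 36.7 and 45.2 CPM. The stem cell markers Lgr5, Olfm4 and Ascl2 had too few counts to be tested, and the tuft cell markers Il25 and Gfi1b had 0 counts throughout. The 16 fibroblast, smooth muscle, endothelial and leukocyte markers reached at most 20.2 CPM in any library, and 0 of those tested passed the threshold.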

How the data were processed

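The authors deposited raw counts, 1 row per gene symbol and 1 column for each of 6 libraries, with totals from 28316372 to 35035955. STAR 2.5.3a and the build mm10 are named per the submitters' processing notes. The kit is stranded with molecular identifiers, per the labels' protocols. No source used here gives the counting program, its strand setting or whether identifiers entered the counts. Of counts from 1 to 8, 72.6% to 78.7% were even, so counts may not be independent molecules.

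The filter was filterByExpr (minimum count 10, minimum total 15). Libraries were scaled by TMM factors of 0.962 to 1.04 and genes tested by edgeR 4.0.16 in R 4.3.3 (quasi-likelihood F-test, robust, with group as the sole term). P-values were Benjamini-Hochberg adjusted over all 12139 genes, with calls at 0.05. SEs were taken as |log2 fold change| over the root of F, and 95% intervals from them with the fit's t quantiles. CPM use TMM-scaled totals, and per-library log2 means add a prior count of 2. Gene lengths are of the longest protein-coding transcript in GENCODE M21 on GRCm38, from which positions of whole protein-coding genes also come. Vil1, Ush1c and Ezr share 49, 120 and 4 exonic bases with genes on the other strand (1.38%, 3.12% and 0.122% of their exonic bases). How reads there were assigned is not known, as the strand setting of the counting is not given.

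The members and lists were chosen with earlier results of these data known. All 10 members are named; from each list, called genes with the smallest p (up to 3 each way), paralogs and partners are named. Slk, Misp, Srf, Cdhr3, Ush1g and Pls3 are named beside them as genes not called or not tested. A result on a listed linker gene is not reported here, and that gene is left out of the lists and shares. Scripts were tested on simulated counts. Alternatives used other size factors, library totals, other filters, DESeq2 1.42.0, limma-voom (limma 3.58.1), robust estimation off, a replicate block and each library left out; halved counts and limma-voom with group quality weights were added after the data were seen.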

Additional observations from a re-analysis of the deposited data

How the results depend on the processing

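Over 16 alternatives for each of the 10 microvillus genes, 158 of 160 values kept their direction and side of the threshold, and the exceptions were the calls of Ezr given above; 9 members fell and 0 rose in every alternative except those. Leaving out each library in turn, 8 to 9 members fell. The adhesion median log2 fold change ran from -1.06 to -0.81, the bundling minus adhesion difference from -0.41 to -0.16, and falling genes of the 6 other lists from 14 (without control replicate 2) to 22. Over all genes, 1035 to 1797 fell and 934 to 1510 rose; leaving out control replicate 1, 2 or 3 gave 1035, 1043 and 1055 falling and 960, 934 and 1020 rising genes. Of the 30 called genes in those lists, 21 kept their call in every alternative. The labels do not say that replicate numbers pair the libraries. Same-numbered deviations correlated at -0.02 to 0.01, and of the controls replicate 3 correlated best with its own number while replicates 1 and 2 did not. With the replicate block, 9 members fell and 0 rose, and 1390 genes fell and 1204 rose in all. Scaling to library totals moved the split over all genes to 1803 falling and 1221 rising, with a median log2 fold change of -0.08. With 3 libraries a group, leaving out 1 was enough to end the calls named above.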
